A study of Homo sapiens with 12 samples.

Results

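The transcriptome of LNCaP cells made to lack Bag-1L was compared with that of their control line while both were under androgen. LNCaP is an established prostate cancer line whose growth depends on androgen. Of 12 RNA-seq samples in the series, 4 entered the comparison: all samples labelled as TALEN Bag-1L knockout (KO) with dihydrotestosterone (DHT), 2 replicates, and all samples labelled as TALEN control with DHT, 2 replicates. DHT is the potent natural androgen. Both lines were starved of hormone for 72 h and then given 10 nM DHT for 16 h. The same lines with the vehicle ethanol (EtOH), starved for 72 h and treated for 16 h, and in full medium (FM) with whole serum and no starvation supplied the only other comparisons, each with 2 samples per line and none shared with the DHT comparison. A TALEN is a designed nuclease, here directed at the first codon of Bag-1L. KO cells were grown from single clones picked by serial dilution, the control line carried a control TALEN vector, and no source says that a group holds more than 1 clone, so the effect of losing Bag-1L and a difference between clones cannot be told apart. The replicates are labelled biological duplicates, and p-values measure the spread between such samples.

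BAG1 encodes a family of co-chaperones that release nucleotide from HSP70 and so help it let go of folded clients. Its forms are made from 1 mRNA by starting translation at different codons, and the longest, Bag-1L, is the form found in the nucleus. In prostate cells androgen raises genes of secretion, lipid metabolism and differentiation and lowers others. In the endoplasmic reticulum (ER) of such secretory cells, proteins for export are folded by a separate set of chaperones, which is induced through the sensors ATF6, IRE1 (ERN1) and PERK (EIF2AK3), the last of which acts in part through the factor ATF4.

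The site of the knockout lies in exon 1 of BAG1, on the minus strand of chromosome 9 in GRCh37. The annotation places the Bag-1L start codon at chr9:33264670-33264672, where it is the non-standard codon CTG, and the start codon of the shorter annotated forms at chr9:33264325-33264327, 345 bases further along the gene. The 30 bases around each, read from the reference genome, show which start the nuclease was aimed at, with the start codon in capitals.
BAG1, start of Bag-1L, chr9:33264655-33264684: acaagtgcgggcCTGgctcagcgcgggggg
BAG1, start of the shorter forms, chr9:33264310-33264339: cagggcgaagagATGaatcggagccaggag

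BAG1 mRNA fell in KO under DHT. The normalised read count, which is the count divided by a size factor for each sample, was 2199 and 2631 in control and 1076 and 1114 in KO. The groups did not overlap, and both KO samples lay close together. The log2 fold change of KO over control was -1.14 ± 0.18 (DESeq2 adjusted p = 7.71e-09), so that KO held 45.3% of the control level. The count covers all forms of the mRNA and does not show which protein was made.

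Genes were called at an adjusted p of 0.05 or less together with a difference of 1.5-fold or more. Of 16014 genes tested under DHT, 1278 were called, which is 7.98% of them. In KO 747 genes were higher (4.66% of those tested) and 531 were lower (3.32%). The median log2 fold change was 0.92 over the genes called higher and -0.81 over those called lower, beside -0.018 over all genes tested. A change of 2-fold or more was reached by 317 of the higher and 187 of the lower genes, and one of 4-fold or more by 56 and 32. The 4 samples did not overlap for any called gene, but this was also true of 57.4% of all genes tested. The count of calls fell to 720 without replicate 2 of control DHT, 416 of them higher and 304 lower. Libraries held from 20826843 to 30354666 gene counts, and the 4 DHT libraries from 25155276 to 30354666. Replicates differed by a median of 0.171 on the log2 scale in control DHT and 0.127 in KO DHT.

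The labelled cell type was checked by markers. All 10 luminal prostate markers were tested and present, among them HOXB13 and KLK3, whereas the summed normalised count of the 6 basal markers lay between 367 and 445 in the 4 samples and came mostly from DST, a cytoskeletal linker that many cells use. The defining basal markers KRT5 and TP63 had at most 3.0 in any DHT sample. The 8 leukocyte markers summed to between 19.9 and 34.7, 2 of them were at 0 in all 4 samples, and 5 endothelial markers to between 142 and 161.5, nearly all of it VWF. Among 10 fibroblast and smooth muscle markers the sum was 1706 and 1770 in control and 845 and 981 in KO, of which COL1A1 and ACTA2 made up most, whereas DCN and LUM had at most 6.1 in any sample. The 10 neuroendocrine markers summed to 255 and 258.5 in control and 383 and 402 in KO, carried by ENO2, while CHGA did not exceed 2.4.

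ALDH1A1, which makes retinoic acid from retinal, showed the largest fall among well expressed genes. Its normalised count was 525 and 602 in control and 42.8 and 30.9 in KO. The KO samples held 6.53% of the control mean, a log2 fold change of -3.92 ± 0.21 (DESeq2 adjusted p = 6e-73). PLOD2, the lysyl hydroxylase of collagen cross-linking, stood at 234 and 262 in control and 28.2 and 32.9 in KO and fell by 3.03 on the log2 scale. ACTA2, the smooth muscle actin, had counts of 709.7 and 689 in control and 85.5 and 116 in KO and a log2 fold change of -2.80 ± 0.20 (DESeq2 adjusted p = 5.3e-41). In each of these genes the lowest control sample was more than 5 times the highest KO sample. About 35.9% of the exonic bases of ACTA2 are shared with overlapping genes, FAS and an antisense transcript, and whether reads were counted by strand is not stated.

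The other large falls covered membrane, trafficking and cytoskeletal genes. ATP1B1, the beta subunit of the sodium pump, was the most abundant of them, with 4187 and 4641 in control and 1134 and 1044 in KO and a log2 fold change of -2.02 ± 0.11 (DESeq2 adjusted p = 3.6e-77). MICAL1, an enzyme that oxidises and disassembles actin filaments, had 1604 and 1540.3 in control and 357 and 357 in KO (-2.14 ± 0.13). Further falls were seen for CD163L1, a scavenger receptor (-2.77), CADPS2, which primes dense-core vesicles for release (-2.52), and PHLDB2, which anchors microtubules at the cell cortex (-1.99). VCX3B (-2.28) and VCX (-2.23), a testis-expressed pair on the X chromosome, share 74.3% and 73.4% of their 50-base words with other genes. Reads that fit several near-identical copies equally well would have been dropped in counting, so each value is uncertain.

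EPHA3, an ephrin receptor tyrosine kinase that senses ligands on neighbouring cells, showed the largest rise among well expressed genes. Its normalised count was 566 and 506 in control and 5908 and 5004 in KO, which is 10.2-fold with a log2 fold change of 3.35 ± 0.14 (DESeq2 adjusted p = 4.88e-124). MYD88, the adaptor that links toll-like and interleukin-1 receptors to NF-kB, stood at 93.9 and 88.8 in control and 669 and 704 in KO, or 2.91 ± 0.17 (DESeq2 adjusted p = 1.75e-62). DLX5, a homeobox factor of bone and neural crest, was scarce in control and clear in KO, at 26.2 and 26.2 in control and 194 and 256 in KO (3.10 ± 0.32 on the log2 scale). In all 3 genes the lowest KO sample exceeded the highest control sample by more than 7 times.

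Among the other leading rises, DDC, the decarboxylase that makes dopamine and serotonin, reached the highest level, with 539 and 605 in control and 2491 and 2450.2 in KO (2.11 ± 0.12). The long non-coding RNA COLCA1 stood at 196 and 150.3 in control and 1247 and 987 in KO (2.69 ± 0.18). PLPPR1, a membrane protein of neurite outgrowth (2.40), PLA2G2A, a secreted phospholipase (2.24), CACNA1H, a T-type calcium channel (2.22), LUZP2, a leucine zipper protein (2.17), and AHNAK2, a large scaffold protein (2.12), rose by 4-fold or more. The plot of counts per sample shows that none of these genes, nor any of the leading falls, had overlapping groups. They were chosen partly for that, and 57.4% of all tested genes did not overlap either.

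**Figure D1:**
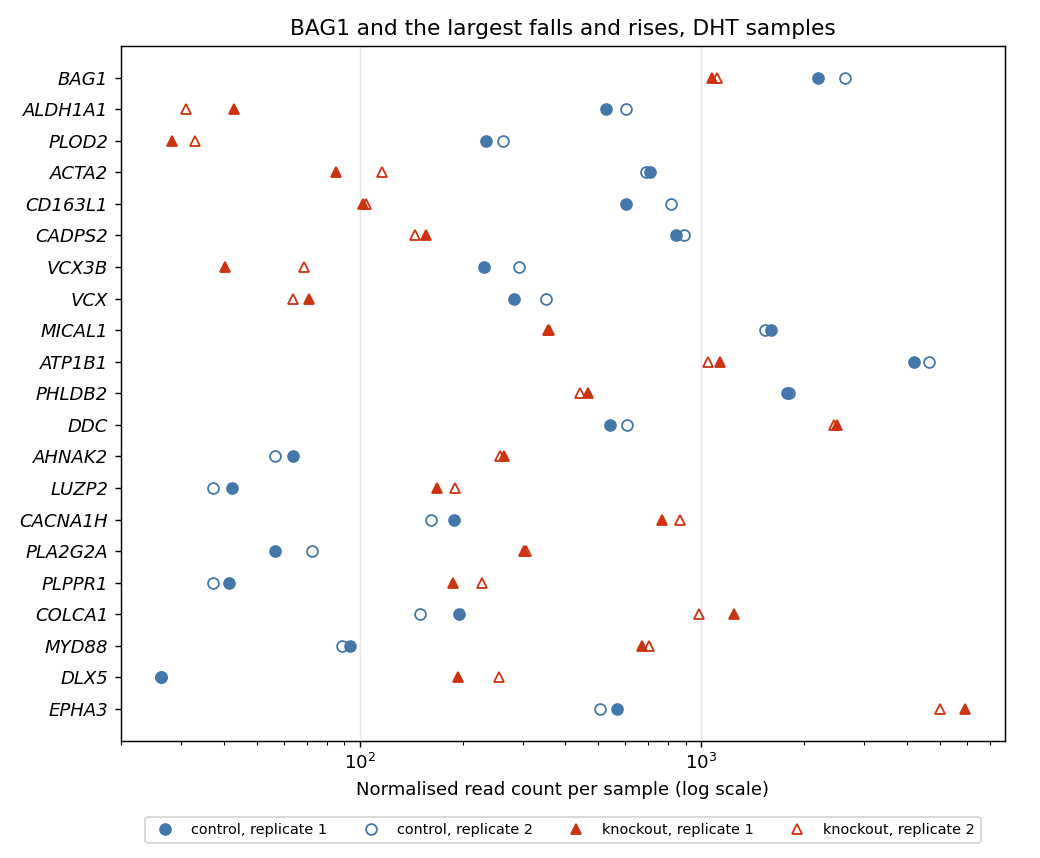
Normalised read count (log axis) of BAG1 and of the 10 largest falls and 10 largest rises by log2 fold change, each point 1 DHT sample, circles for control and triangles for KO, filled for replicate 1 and open for replicate 2. In each row the 2 control points stand clear of the 2 KO points, from ALDH1A1 with a log2 fold change of -3.92 to EPHA3 with 3.35.

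By amount of RNA rather than by fold, ER chaperones and a polyamine enzyme led the falls. ODC1, the rate-limiting enzyme of polyamine synthesis, had the largest loss, with 266546 and 321554 in control and 153830.0 and 150490.0 in KO (-0.95 ± 0.14 (DESeq2 adjusted p = 1.37e-09)). HSP90B1, the ER form of HSP90, stood at 121360.0 and 149582 in control and 56847 and 52902 in KO (-1.30 ± 0.13 (DESeq2 adjusted p = 1.25e-22)). HSPA5, the ER form of HSP70, had 95879 and 112712 in control and 51788 and 52987 in KO (-0.99 ± 0.12 (DESeq2 adjusted p = 9.22e-16)). The androgen-induced gene NDRG1 (-1.02) and the ER disulfide isomerase PDIA4 (-1.05) followed, so 3 of the 5 largest losses were ER folding proteins. The largest gains by amount were the mitochondrial gene MT-CO1 of cytochrome oxidase (0.65), the desmosomal cadherin DSG2 (1.07), the lipid transfer protein VPS13A (1.08), the elongation factor EEF1A2 (1.21) and the nuclease ENDOD1 (0.71). MT-CO1 was not called without replicate 2 of KO DHT, at 0.52, it shares 49.5% of its 50-base words with other genes, and the 13 mitochondrial protein genes had a median of 0.23 with no other member called.

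The ER stress and unfolded protein response list moved as a group. Of its 27 tested members 17 fell and none rose in KO, beside 3.32% lower and 4.66% higher over all genes tested. The median log2 fold change of the list was -0.70, against -0.018 for all genes, and 25 members had a negative value. The summed normalised count of the list was 512273 and 576303 in control and 301908 and 299010 in KO. Both KO sums lay below both control sums.

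Chaperones of the ER lumen and their helpers made up most of the list's falls. Beside HSP90B1 and HSPA5, the co-chaperones DNAJB9 (-0.85), DNAJB11 (-0.84) and DNAJC3 (-0.70), which feed clients to HSPA5, were called. The disulfide isomerases PDIA4 (-1.05 ± 0.09), PDIA3 (-0.68 ± 0.14) and PDIA6 (-0.67 ± 0.09) fell together. So did the secreted stress factors MANF (-0.96) and CRELD2 (-0.93) and the chaperone complex component SDF2L1 (-0.96). HERPUD1, which assembles the machinery that retrieves misfolded proteins for degradation, had 10847 and 11807 in control and 4901 and 4940.3 in KO (-1.20 ± 0.10 (DESeq2 adjusted p = 1.94e-30)), and EDEM1, which marks glycoproteins for the same route, changed by -0.70. Both groups of samples were tight for HERPUD1, and the highest KO sample lay below 50% of the lowest control sample.

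Of the regulators in the list 3 fell. DDIT3, the CHOP factor induced in prolonged stress, stood at 1093 and 1328 in control and 538 and 626 in KO (-1.06 ± 0.17 (DESeq2 adjusted p = 5.86e-08)), and 31.6% of its exonic bases overlap other genes. PPP1R15A, which restores translation by removing phosphate from eIF2α (-0.76), and ATF4 itself (-0.70 ± 0.14) were also called. The sensors were not: ATF6 had a log2 fold change of 0.01 ± 0.12, ERN1 of 0.05 ± 0.16 and EIF2AK3 of -0.46 ± 0.13, the last with an adjusted p of 0.00382 but under the fold minimum. XBP1, whose mRNA is spliced by IRE1, was at -0.49 ± 0.12, and the calcium-binding chaperones CALR (-0.42 ± 0.09) and CANX (-0.28 ± 0.11) were likewise not called. Without replicate 2 of control DHT the number of members that fell was 13, and SDF2L1, PDIA3, PPP1R15A and SEC61B were the members that lost the call. PPP1R15A was not called without replicate 1 of KO DHT either.

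Promoter sequences put these genes side by side at the level of DNA. The ER stress response element, read as CCAAT, 9 bases of any kind and CCACG, was searched on both strands of RefSeq promoters from 250 bases before to 50 after the start. It was found in 6 of 27 list members with a promoter (CALR, CANX, CRELD2, HSP90B1, HSPA5 and XBP1) and in 22 of all 27305 promoters, or 0.0806%. Of the 16 members that fell and had a promoter, 3 held it, and of the 11 others, also 3. HSP90B1 held it on both strands, 1 copy each. A match is a description of the letters and no proof of a site. The stretch around each match in the genes that fell is printed from before the start, 5′ to 3′ along the gene, with the fixed letters of the element in capitals and positions in GRCh37.
HSP90B1, chr12:104323984-104324127, plus strand: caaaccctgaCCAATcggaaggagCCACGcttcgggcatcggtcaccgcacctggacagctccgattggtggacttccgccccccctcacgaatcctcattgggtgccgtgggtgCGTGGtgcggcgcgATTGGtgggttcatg
HSPA5, chr9:128003660-128003698, minus strand: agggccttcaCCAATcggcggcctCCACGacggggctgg
CRELD2, chr22:50312192-50312230, plus strand: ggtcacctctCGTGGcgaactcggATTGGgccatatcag

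Amino acid genes that ATF4 induces fell next to the ER genes. Of 26 tested members of the ATF4 list, which covers amino acid transport, serine synthesis and stress factors, 14 fell and none rose, beside 3.32% lower and 4.66% higher over all genes, with a median log2 fold change of -0.61 and 25 negative values. ATF4 belongs to both lists. CHAC1, which breaks down glutathione, stood at 406 and 422 in control and 144 and 176 in KO (-1.38 ± 0.20 (DESeq2 adjusted p = 1.7e-09)). The glutamine carrier SLC1A5 had 6059.5 and 5885 in control and 2607 and 2856 in KO (-1.13 ± 0.12 (DESeq2 adjusted p = 2.51e-19)), and the cystine carrier SLC7A11 had 5507 and 5406 in control and 2866 and 2299 in KO (-1.08 ± 0.14 (DESeq2 adjusted p = 6.3e-13)). In each of the 3 genes the highest KO sample lay below 60% of the lowest control sample.

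Enzymes of the same list changed less but with narrow errors. Asparagine synthetase ASNS was at -0.88 ± 0.12, PSAT1 of serine synthesis at -0.71 ± 0.09 and the mitochondrial folate enzyme MTHFD2 at -0.68 ± 0.10. The hormone STC2 (-0.77), the glutamine carrier SLC38A2 (-0.72) and the carrier subunit SLC3A2 (-0.69) were called as well. About 45.4% of the 50-base words of ASNS also occur in other annotated genes. PHGDH, the first enzyme of serine synthesis (-0.51 ± 0.14), and the carrier SLC7A5 (-0.18 ± 0.13) were not called. CEBPB, NUPR1, DDIT4 and TRIB3 were called, but each lost the call without replicate 2 of control DHT and also without replicate 1 of KO DHT, where 12 and 10 members of the list fell.

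The composite element read by ATF4 and its partners, searched as TGATGNAA on both strands, occurred in 5 of the 21 list members with a promoter (AARS1, ASNS, CHAC1, SLC3A2 and SLC7A1) and in 1003 of 27305 promoters, or 3.67%. It was present in 3 of the 12 members that fell and in 2 of the 9 others. In the ER list only HERPUD1 held it. The matches before the start in genes that fell are shown in the same way.
CHAC1, chr15:41245450-41245477, plus strand: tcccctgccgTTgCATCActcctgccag
ASNS, chr7:97501771-97501798, minus strand: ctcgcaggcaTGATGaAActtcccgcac

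Both lists were compared across culture conditions, since the KO and control lines were also sampled without DHT. In EtOH 7 of 27 ER members fell with a list median of -0.49, and in FM none was called with a median of -0.20, beside 2.31% and 2.6% of all genes called lower there. The ATF4 list gave 7 of 26 lower in EtOH (median -0.49) and 1 in FM (median -0.11). The difference between the KO effect in DHT and that in FM was tested per gene in the same fit. It was called as more negative in DHT for 11 of 27 ER members and 6 of 26 ATF4 members, beside 1.31% of all 12971 genes tested. The largest differences were SDF2L1 at -1.33 ± 0.33 (DESeq2 adjusted p = 0.00604), DDIT3 at -1.16 ± 0.25 (DESeq2 adjusted p = 0.000929) and CHAC1 at -1.08 ± 0.30 (DESeq2 adjusted p = 0.0223). Between DHT and EtOH no member of either list was called for a difference, where 0.185% of 13478 genes were called as more negative. The control EtOH replicates lay further apart than those of any other group, at a median of 0.238 on the log2 scale. The part of that spread in the lack of calls was not tested. The number of genes called for the difference to FM over the whole table ranged from 54 to 773 as single samples were left out.

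**Figure D2:**
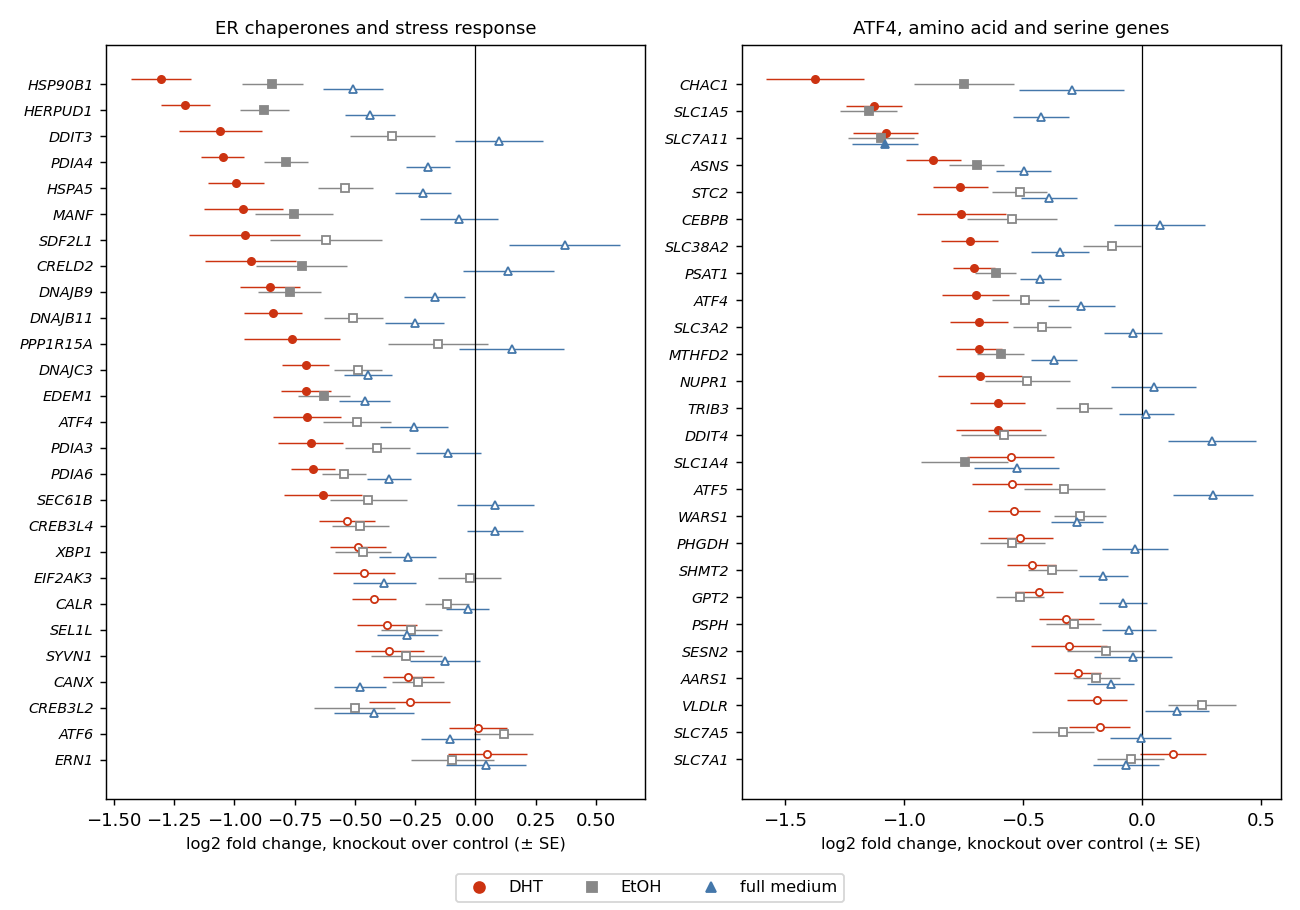
log2 fold change of KO over control (± SE) for each tested member of the ER list (left) and the ATF4 list (right), in DHT, EtOH and FM, filled where the gene was called and open where it was not. Most DHT points lie furthest to the left, with medians of -0.70 and -0.61, and the FM points lie nearest to 0, with medians of -0.20 and -0.11.

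Bag-1 acts in the cytosolic and nuclear chaperone system. Of 39 tested members of the BAG, HSP70 and HSP90 list, 4 fell and none rose, beside 3.32% lower and 4.66% higher over all genes. The list median was -0.19, and 29 members had a negative value. The groups stood apart for 22 members with lower and 5 with higher values in KO, beside 57.4% of all genes tested in either direction. The 4 that fell were BAG1 itself, the ER chaperones HSP90B1 and HSPA5, and the immunophilin FKBP5, so 2 of the 4 are ER proteins. HSPA8, the constitutive HSP70, had 109853 and 113538 in control and 106306 and 106726 in KO (-0.07 ± 0.08). HSP90AA1 (-0.30 ± 0.12) and HSP90AB1 (-0.24 ± 0.11) were not called, nor was the co-chaperone BAG3 (-0.36 ± 0.11). None of 25 coregulators of steroid hormone action and none of 9 luminal transcription factors was called, with medians of 0.003 and 0.18 and log2 fold changes from -0.41 to 0.46 and from -0.53 to 0.50.

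Genes known to be induced by androgen went both ways. Of 33 tested, 5 were higher and 8 lower in KO under DHT, beside 4.66% and 3.32% over all genes, with a list median of 0.07, which was -0.06 without replicate 2 of control DHT. KLK3, the gene of prostate-specific antigen, stood at 10825 and 11769.7 in control and 18405 and 17932 in KO (0.69 ± 0.13 (DESeq2 adjusted p = 6.85e-06)). TMPRSS2, a surface protease, had 3157 and 3008 in control and 5724 and 5075 in KO (0.81 ± 0.11 (DESeq2 adjusted p = 1.16e-10)). TRPM8, a cold-sensing calcium channel, had 534 and 568 in control and 1310.2 and 1178 in KO (1.18 ± 0.12 (DESeq2 adjusted p = 6.78e-20)). All 3 were higher in both KO samples than in either control sample. ACP3, the prostatic acid phosphatase (1.83), and STEAP2, a metalloreductase (0.83), also rose.

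The induced genes that fell were partly regulators of stress and lipid metabolism. MAF, a leucine zipper factor, had the largest fall of the list, with 5781 and 6288 in control and 1709 and 1699 in KO (-1.82 ± 0.12 (DESeq2 adjusted p = 1.67e-52)). NDRG1, a stress-responsive gene that androgen induces, stood at 75186 and 76823 in control and 36980.1 and 38110.1 in KO (-1.02 ± 0.10 (DESeq2 adjusted p = 1.54e-22)). FKBP5, the immunophilin that binds HSP90, had 36045 and 33569 in control and 23628 and 22488 in KO (-0.59 ± 0.09 (DESeq2 adjusted p = 1.25e-08)). The groups stood apart in each, but FKBP5 was near the fold minimum and was not called without replicate 1 of control DHT (-0.54) or without replicate 2 of KO DHT (-0.56). TSC22D3, a leucine zipper protein known from glucocorticoid action (-0.89), the kinase SGK1 (-0.81), the elongation factor ELL2 (-0.76) and the fatty acid ligase ACSL3 (-0.76) fell too.

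Genes known to be repressed by androgen had mostly higher values. Of 14 tested, 6 rose and none fell, beside 4.66% higher and 3.32% lower over all genes, with a median of 0.56 and 1 negative value. FOLH1, the prostate-specific membrane antigen, was the most abundant, with 5879 and 6444 in control and 12990.2 and 12431 in KO (1.04 ± 0.09 (DESeq2 adjusted p = 3.39e-29)). CAMK2N1, an inhibitor of the kinase CaMKII, had 199 and 215 in control and 508 and 505 in KO (1.29 ± 0.14 (DESeq2 adjusted p = 4.47e-17)). DDC and PLPPR1 belong to this list as well, and UGT2B17, which conjugates androgens for excretion (0.68), and CCN3, a matrix protein (1.24), complete the 6. UGT2B17 was not called without replicate 1 of control DHT, replicate 1 of KO DHT or replicate 2 of KO DHT (lowest value 0.36), and CCN3 was not called when any of the 4 samples was left out.

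The androgen-responsive genes were also followed in the other conditions. TMPRSS2 had a log2 fold change of 0.81 in DHT, -0.58 in EtOH and 0.83 in FM, and its difference between DHT and EtOH was called (1.39 ± 0.17 (DESeq2 adjusted p = 4e-13)). TRPM8 gave 1.18, -0.03 and 1.19, with a difference to EtOH of 1.21 ± 0.19 (DESeq2 adjusted p = 2.64e-07). Over the induced list 4 genes were called as more positive in DHT than in EtOH and none as more negative, beside 0.223% and 0.185% of all genes. The centromere protein gene CENPN was another of the 4 (0.89 ± 0.17 (DESeq2 adjusted p = 0.000171)). Over the whole induced list the median difference to EtOH was 0.05, with 21 positive and 12 negative values. The median KO effect of this list was 0.07 in DHT, -0.32 in EtOH and 0.04 in FM. Against FM most calls of the induced list went the other way. There 1 of 33 genes was called as more positive in DHT and 4 as more negative, beside 0.971% and 1.31% of all genes. The median difference to FM was -0.16. In the repressed list 2 of 14 genes were called as more positive in DHT than in EtOH and 5 of 13 as more positive than in FM, with none more negative, and its median KO effect was 0.51 in EtOH and -0.09 in FM.

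**Figure D3:**
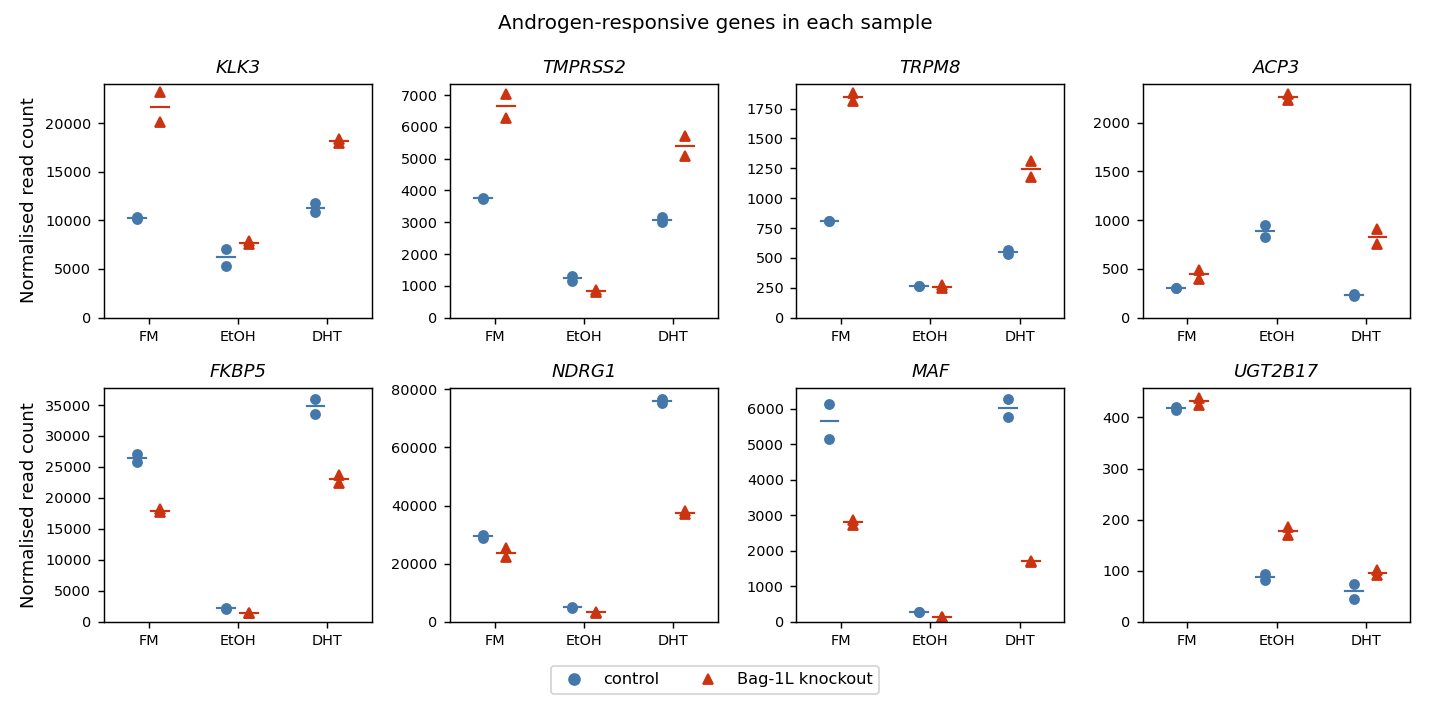
Normalised read count of 8 androgen-responsive genes in every sample of the series, circles for control and triangles for KO, with a short line at each mean of 2 replicates, in full medium (FM), vehicle (EtOH) and DHT. Under DHT the KO points lie above control for KLK3, TMPRSS2, TRPM8, ACP3 and UGT2B17 and below control for FKBP5, NDRG1 and MAF.

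Mitotic genes had lower values in KO. All 40 tested members of the G2/M and mitosis list had a negative log2 fold change, with a median of -0.46, and 12 of them were called, beside 3.32% lower over all genes. KIF4A, a chromosome-associated kinesin, stood at 1285 and 1347 in control and 824 and 758 in KO (-0.73 ± 0.12 (DESeq2 adjusted p = 2.63e-08)). MYBL2, a factor that activates mitotic genes, had 2478 and 2342 in control and 1438 and 1513 in KO (-0.71 ± 0.12 (DESeq2 adjusted p = 1.45e-07)), and the kinesin KIF2C had 1432 and 1385 in control and 907 and 865 in KO (-0.67 ± 0.11 (DESeq2 adjusted p = 4.38e-08)). The KO samples were lower than both control samples in each. Without replicate 2 of control DHT the number called was 5, and CCNB1, BIRC5, AURKB, UBE2C, PTTG1, DLGAP5 and CDC25C lost the call. Of 43 G1/S and replication genes 4 fell and none rose, with a median of -0.29, namely the origin licensing factor CDC6 (-0.86 ± 0.10), the helicase component CDC45 (-0.76 ± 0.15), and POLE2 (-0.68) and GMNN (-0.59), which were not called without replicate 2 of control DHT. In bulk samples, fewer cells in a phase and less of these RNAs per cell cannot be told apart.

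The mitotic list was lower in starved cells with and without DHT. In EtOH 16 of 40 members fell, beside 2.31% of all genes, with a median of -0.52, and in FM none was called with a median of -0.11. No member was called for a difference between DHT and EtOH. Between DHT and FM 6 were called as more negative in DHT, beside 1.31% of all genes. None of 77 cytosolic ribosomal protein genes was called, and their median was -0.26 in DHT with 73 negative values, -0.25 in EtOH and 0.06 in FM. Their summed normalised count under DHT was 2031010 and 2487900 in control and 1823060 and 2010340 in KO, so replicate 1 of control lay close to replicate 2 of KO, and without replicate 2 of control DHT the median was -0.08 with 56 negative values. Over tested genes the log2 fold change in DHT correlated weakly with exonic length (Spearman 0.154) and with GC content (0.106). The part of either in the values of these lists was not tested.

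Calls in the immediate early, glycolysis and lipid lists are read against 3.32% lower and 4.66% higher over all genes. Of 20 immediate early genes 4 fell and none rose, among them ATF3, with 2210.0 and 2069 in control and 948 and 1089 in KO (-1.07 ± 0.14 (DESeq2 adjusted p = 1.74e-12)), and KLF6, with 951 and 916 in control and 408 and 433 in KO (-1.15 ± 0.14 (DESeq2 adjusted p = 4.86e-14)). Both encode transcription factors that cells induce soon after a stimulus, and both had separate groups. The others were KLF4 (-0.65) and CCN1 (-0.68), which was not called without replicate 2 of control DHT or replicate 1 of KO DHT. VEGFA, the endothelial growth factor (-0.86 ± 0.10), and the glycolytic enzyme PFKP (-1.33 ± 0.21) fell in the glycolysis and hypoxia list, where 3 of 33 members fell with NDRG1, and ENO2 (1.02 ± 0.19) and the carbonic anhydrase CA12 rose, the latter (0.69) not without replicate 2 of control DHT or either KO replicate. In cholesterol synthesis, 2 of 24 genes fell, of which HMGCS1, the enzyme before HMG-CoA reductase, had 20859 and 21371 in control and 10551 and 9250.1 in KO (-1.09 ± 0.10 (DESeq2 adjusted p = 1.6e-25)), and 21 had a negative value with a list median of -0.33. About 37.7% of the exonic bases of HMGCS1 are shared with an overlapping gene. Of 21 fatty acid genes 4 fell and 1 rose, the falls being ME1 (-0.79), ACSL3 (-0.76), FADS1 (-0.73) and ELOVL6 (-0.71), which supply reducing power, activate, desaturate and elongate fatty acids. FADS1 was not called without replicate 1 of control DHT (-0.58), and ACSL4, which rose (0.59), not without that sample or replicate 1 of KO DHT. STARD4, a sterol carrier and the other cholesterol gene that fell (-0.69), was not called without replicate 2 of KO DHT.

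Ephrins and their receptors signal between touching cells. Of 21 in the list 6 rose and 1 fell, beside 4.66% higher and 3.32% lower over all genes, with a median of 0.16. Beside EPHA3, the ligand EFNA5 was abundant and raised, at 6739.9 and 6817 in control and 15506 and 15841 in KO (1.21 ± 0.09 (DESeq2 adjusted p = 1.78e-43)), and the receptor EPHB6 stood at 104 and 77.7 in control and 278 and 246 in KO (1.53 ± 0.21 (DESeq2 adjusted p = 2.92e-11)). EFNB3 (0.81), EPHA10 (0.71) and EPHA4 (1.71) rose and EPHA7 (-0.99) fell, with EPHA4 at few counts and not called without replicate 2 of control DHT. Both called ligands rose, and the single fall was a receptor. Of 31 semaphorin, plexin, slit and netrin genes, with a median of 0.09, 4 rose, led by the secreted SEMA3C (1.01 ± 0.15), and 1, the netrin receptor UNC5A, fell (-0.63 ± 0.19). UNC5A was not called without replicate 1 of control DHT or without either replicate of KO DHT, and UNC5B, 1 of the 4 rises (0.93), not without replicate 2 of control DHT.

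Signalling and metabolic lists held single large changes. Their counts of calls are read against 4.66% higher and 3.32% lower over all genes tested. In the MYD88 and NF-kB list 3 of 27 genes rose and 1 fell. With MYD88 rose NFKBIZ, an atypical IκB (1.23 ± 0.25), and RELB, a subunit of the non-canonical pathway (1.33 ± 0.32), which was not called without replicate 2 of control DHT, nor was NFKBIB, which fell (-0.68). IGF1 (74.7 and 56.5 in control and 179.9 and 174 in KO; 1.43 ± 0.24) and the lipid phosphatase INPP4B (1.06 ± 0.14) rose among 23 insulin and IGF genes, as did RPTOR (0.63, not without replicate 2 of control DHT or of KO DHT), where IGFBP3, which binds IGF1, fell (-0.82 ± 0.14). In steroid metabolism CYP11A1, which makes pregnenolone from cholesterol, had 24.2 and 22.2 in control and 106 and 132 in KO (2.35 ± 0.32 (DESeq2 adjusted p = 4.47e-11)). The conjugating enzymes UGT2B11 (-0.83 ± 0.15) and UGT2B28 (-0.83 ± 0.18) fell, and share 36.1% and 34.3% of their 50-base words with other genes, so their counts are uncertain. That list had 3 of 21 members higher and 5 lower, and the other 5, HSD17B6, UGT2B17, AKR1C1, AKR1C2 and UGT2B10, each lost the call without at least 2 of the 4 samples in turn. SLC30A4, a zinc exporter that loads secretory vesicles, rose (0.98 ± 0.12 (DESeq2 adjusted p = 1.35e-13)) and SLC39A7, which releases zinc from the ER, fell (-0.68 ± 0.12 (DESeq2 adjusted p = 3.08e-07)), the only calls among 18 metallothionein and zinc transporter genes.

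In the other lists calls went both ways, and they are read against 4.66% higher and 3.32% lower over all genes tested. Of 34 interferon and antigen presentation genes 2 rose and 4 fell, of 24 p53 targets 2 rose and 3 fell, of 34 cadherin, integrin and matrix genes 2 rose and 3 fell, of 32 WNT genes 1 rose and 2 fell, and of 16 retinoid genes RDH16 rose and ALDH1A1 fell. The interferon list held falls of IFI27 (-1.38), ISG20 (-1.10), B2M (-0.63) and USP18 (-0.59) and rises of TAP1 (0.63) and IFITM1 (1.44), of which all but USP18 lost the call without replicate 2 of control DHT. USP18 lost it without replicate 1 of either group. In the matrix list COL12A1 (1.66) and FN1 (0.92) rose and LAMB3 (-0.99), SNAI2 (-0.60) and the scarce VIM fell. FN1 was not called without replicate 2 of control DHT, and SNAI2 not without that sample or either replicate of KO DHT. VIM was not called without either replicate of control DHT or without replicate 1 of KO DHT. The p53 targets TP53INP1 (0.94 ± 0.12) and RRM2B (0.81 ± 0.13), which lie on chromosome 8, were the rises. GADD45A (-0.96 ± 0.20), GDF15 (-0.67) and PMAIP1 (-0.63) were the falls. GDF15 was not called without either replicate of control DHT or without replicate 1 of KO DHT (-0.41). PMAIP1 was not called when any of the 4 samples was left out. The WNT receptors FZD5 (-0.97 ± 0.12) and FZD8 (-0.81 ± 0.17) fell, while RNF43, which removes such receptors from the surface, rose (0.92 ± 0.16). About 65.8% of the 50-base words of RNF43 occur in other annotated genes. Of the 10 luminal markers 2 rose, KLK3 and FOLH1, and 2 fell, with 6 positive values and a median of 0.10. The falls were both keratins, KRT8 at 51854 and 58988 in control and 29532 and 34973 in KO (-0.78 ± 0.15 (DESeq2 adjusted p = 1.01e-05)) and KRT18 at 12336 and 13166 in control and 7179 and 8240.1 in KO (-0.73 ± 0.12 (DESeq2 adjusted p = 1.53e-07)). Both KO samples lay below both control samples for each keratin.

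**Figure D4:**
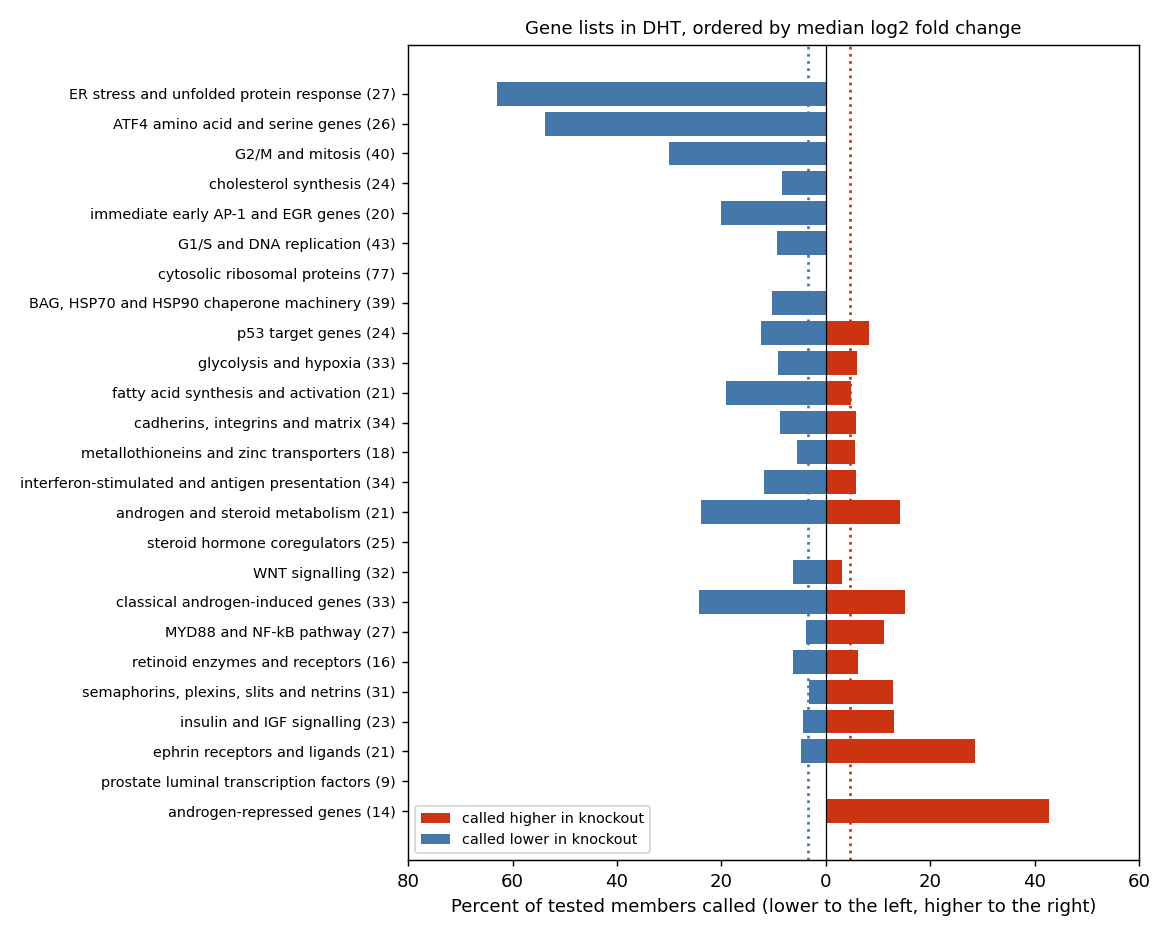
Percent of the tested members (number in brackets) of each of 25 gene lists called lower (left) or higher (right) in KO under DHT, ordered by median log2 fold change from top to bottom. Dotted lines mark 3.32% and 4.66%, the shares of all tested genes called lower and higher, and the ER list stands highest with 17 of 27 members lower.

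Chromosome 8 stood apart from the rest of the genome. Of its 560 tested genes 66 were higher and 11 lower, 13.8% called in all, with a median log2 fold change of 0.28 and 76.3% positive values, while all tested genes had a median of -0.018 and 47.8% positive values. The chromosome was split into windows of 10 Mb, and all 13 with at least 20 tested genes had a median above 0, between 0.11 and 0.40. The 249 windows of other chromosomes had medians from -0.28 to 0.35. The median of chromosome 8 was 0.26 in EtOH and 0.26 in FM as well. Without its genes the counts for DHT would be 681 higher and 520 lower. NDRG1, named with the androgen-induced genes, lies on this chromosome, and the part of the chromosome-wide shift in its value was not tested. Chromosomes 12 (median -0.10) and 13 (0.04) lay closer to 0 as a whole. On chromosome 13, however, the windows from 20 to 30 Mb and from 30 to 40 Mb had medians of 0.35 and 0.22. On chromosome 12 the windows from 80 to 140 Mb had medians between -0.24 and -0.14. HSP90B1 lies in the window from 100 to 110 Mb, with a median of -0.20. The part of that regional shift in its value was not tested. In all, 8 windows of other chromosomes had a median above the lowest of chromosome 8.

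**Figure D5:**
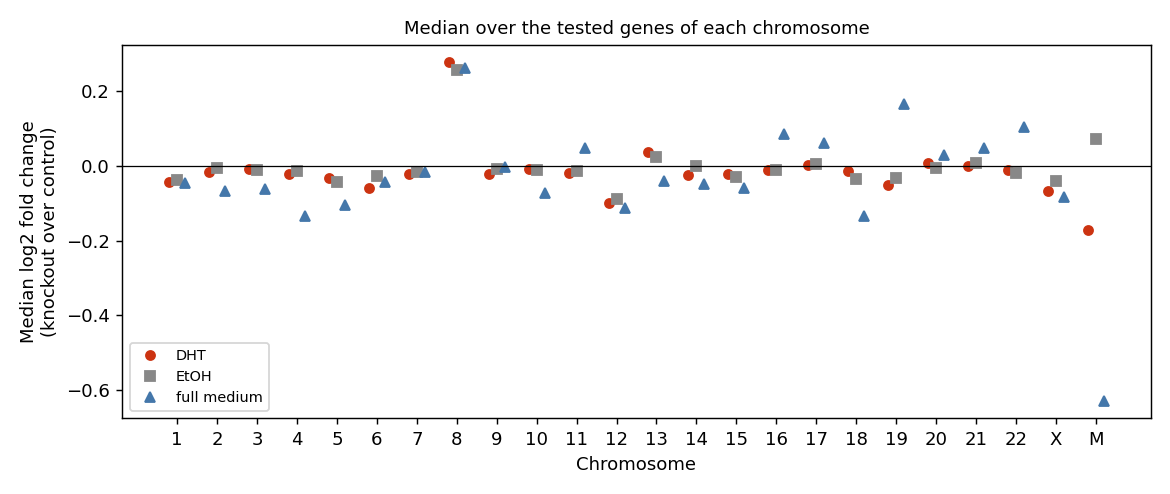
Median log2 fold change of KO over control over the tested genes of each chromosome, in DHT (circles), EtOH (squares) and FM (triangles). Chromosome 8 lies at 0.28, 0.26 and 0.26, and the mitochondrial chromosome (M), with 21 tested genes, at -0.17, 0.07 and -0.63.

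How many of the DHT calls were shared with the other conditions was then counted, using samples that the comparisons do not share. In EtOH 844 of 16521 genes were called (5.11%), 463 higher (2.8%) and 381 lower (2.31%), and in FM 1202 of 15000 (8.01%), 812 higher (5.41%) and 390 lower (2.6%). The DHT and EtOH calls had 564 genes in common with the same direction, which is 44.1% of the DHT and 66.8% of the EtOH calls. With FM they had 469 in common, 36.7% of the DHT and 39.0% of the FM calls. In all 3 conditions 295 genes were called in the same direction, and 538 DHT calls (42.1%) were called in neither other condition. A call in 1 condition alone does not test a difference between conditions. Of the DHT calls 96.3% had the same sign in EtOH and 87.6% in FM, and their median size, signed by the DHT direction, was 0.88 in DHT, 0.63 in EtOH and 0.50 in FM. The DHT value is the one they were selected on. The EtOH count was 480 without replicate 2 of KO EtOH, 549 without replicate 1 of KO EtOH and 1439 without replicate 1 of control EtOH, and the FM count 520 and 553 without replicate 2 of control FM and of KO FM.

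Several leading genes kept their direction in the 3 conditions. EPHA3 had log2 fold changes of 3.35 and 3.33 in DHT and EtOH and a smaller one of 2.50 in FM. Of 17 ephrin list members tested for the difference between DHT and FM, 1 was called as more positive in DHT. The largest difference in that list was 0.85. In DHT, EtOH and FM, MYD88 had 2.91, 2.64 and 2.77, ALDH1A1 -3.92, -4.28 and -4.30, and ATP1B1 -2.02, -1.90 and -2.09. BAG1 had -1.14, -0.94 and -0.43, and its difference between DHT and FM was not called (-0.71 ± 0.25 (DESeq2 adjusted p = 0.0947)). PLPPR1 was at 2.40, 1.49 and 0.16, with a called difference to FM of 2.24 ± 0.37 (DESeq2 adjusted p = 1.04e-06). COLCA1 and BCHE, the cholinesterase of plasma, shared that form, with FM values of 0.15 and -0.04 beside 2.69 and 1.94 in DHT.

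The KO effect under DHT was called as different from that in EtOH for 55 genes (0.408% of 13478), 30 positive and 25 negative, and as different from that in FM for 296 (2.28% of 12971), 126 positive (0.971%) and 170 negative. ID2, an inhibitor of helix-loop-helix factors, fell under DHT, with 3072 and 3223 in control and 1330.4 and 1440.3 in KO (-1.19 ± 0.11 (DESeq2 adjusted p = 1.62e-24)), and in EtOH had 1072 and 1149.9 in control and 1299 and 1201 in KO. Both KO samples were below control under DHT and above it in EtOH, and the difference was -1.35 ± 0.16 (DESeq2 adjusted p = 1.2e-13). UGT2B11 was lower in KO under DHT (-0.83) and higher in EtOH (1.69). MICAL1 fell further under DHT (-2.14) than in EtOH (-1.12), with a difference of -1.01 ± 0.21 (DESeq2 adjusted p = 0.000706). The count of 55 ranged from 16 without replicate 2 of KO EtOH to 155 without replicate 2 of control EtOH, and was 20 without replicate 1 of KO EtOH, 31 without replicate 2 of control DHT, 29 and 34 without replicates 1 and 2 of KO DHT. The count of 296 was 54 and 111 without replicates 2 and 1 of KO FM, 67 and 105 without replicates 2 and 1 of control FM, 96 and 773 without replicates 2 and 1 of control DHT, and 65 without replicate 1 of KO DHT.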

How the data were processed

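The RNA libraries were stranded poly(A) TruSeq libraries, sequenced on an Illumina HiSeq. According to the submitters' processing notes and the study's methods, the authors used CASAVA 1.7, TopHat2 2.0.11 with GRCh37 and HTSeq 0.5.3p3, and deposited raw read counts for 63677 Ensembl genes per sample, not normalized, with 5 tally rows, which were left out. HTSeq drops reads that map to several places or genes. Its strand setting is not given in the sources used here, so overlapping and antisense genes are uncertain.

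Symbols and positions came from GENCODE v44 on GRCh37 (55665 identifiers matched). Genes with at least 10 counts over all 12 samples (26156) were fitted with DESeq2 1.42.0 (R 4.3.3) in a single model with a coefficient per group, and contrasts were tested by Wald tests with Benjamini-Hochberg adjustment. The ± after a log2 fold change is its standard error. Depth limits the smallest detectable level, 3 counts, to between 0.0988 and 0.144 CPM. The contrast of KO and control in DHT was tested on simulated counts, with DESeq2 and with edgeR. The other contrasts and the remaining alternative fits were not. edgeR 4.0.16 was an alternative, with others given under the processing section. RefSeq promoters were placed on GRCh37 by exact match.

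Members and gene lists were chosen with earlier results of these data known. Named genes were BAG1, the 10 largest rises and falls in log2 (mean normalised count at least 100, no overlap), the 5 largest in amount, up to 5 called differences to EtOH and 3 to FM per direction, up to 3 called members per list and direction (or the 2 most abundant), and up to 2 per direction on the 4 chromosomes with most calls. Further list members were named after their values had been seen, and list members without an identifier match here were not analysed. Some members of the lists are counted but not reported singly here.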

Additional observations from a re-analysis of the deposited data

Results flagged for a closer look

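Genes whose KO effect under DHT differed, by the test of the difference in the fit of all samples, from the effect in another condition are listed here with the log2 difference. Against EtOH, the difference was positive for TMPRSS2 (1.387), RDH16 (1.231), TRPM8 (1.208), TNFSF4 (1.119) and EFNB2 (1.072). It was negative for UGT2B11 (-2.518), UGT2B28 (-1.977), TNFAIP3 (-1.499), RUNX1 (-1.372) and ID2 (-1.354). RUNX1 lost the call in every fit that left out 1 DHT replicate and in 3 of the 4 that left out 1 EtOH replicate, RDH16 lost it without replicate 2 of KO DHT or of control DHT, TNFSF4 in every fit without 1 DHT replicate, and both without either KO EtOH replicate or replicate 1 of control EtOH, and UGT2B28 without either KO EtOH replicate. Other processing settings also cost calls. Over all alternatives RUNX1 lost the call in 12, TNFSF4 in 9, RDH16 in 6 and UGT2B28 in 4.

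Against FM, the difference was positive for COLCA1 (2.536), RND3 (2.429) and BCHE (1.973) and negative for ANGPT2 (-2.158), DIO3 (-1.923) and ACTA2 (-1.869). RND3, ANGPT2 and DIO3 were not called in DHT itself, where their log2 fold changes were 0.32, 0.11 and -0.51. DIO3 lost the call without replicate 2 of control DHT, replicate 1 of KO DHT, replicate 1 of control FM or replicate 2 of KO FM. Over all alternatives DIO3 lost it in 5.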

How the results depend on the processing

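In DHT, 2620 genes were called with no fold minimum, 1222 higher and 1398 lower, and single samples left out gave from 720 to 1556 genes, 416 to 838 of them higher and 304 to 718 lower. Of 116 called genes chosen by the naming rule, 82 kept the call under every alternative and none turned, and 27 lost it without replicate 2 of control DHT. With all further called list members, 172 genes, 45 lost it without that sample. With no fold minimum 30 mitotic and 22 ATF4 list members fell, and left-out samples gave 5 to 17 mitotic ones. EtOH gave 506 calls when only its samples were fitted, 1620 with no fold minimum and 480 to 1439 with samples left out, and FM gave 2776 and 520 to 901. The difference to EtOH gave 24 calls by edgeR, 19 from the samples compared alone and 16 to 155 with samples left out, and the difference to FM 91, 920 and 54 to 773. With the replicate number as a block (replicate block), the difference to FM gave 508 calls and DHT 1265, of which 1238 were shared with the fit without it. The numbers were taken to pair nothing. Replicate 2 minus 1 differences of control DHT and KO DHT correlated at 0.159 over 11374 genes, with only 2 pairs. The EtOH and FM groups were not compared in this way, so pairing of the numbers there was not tested. RPL4, never called, was at -0.06, with -0.175 to 0.053 as samples were left out (positive without replicate 2 of control DHT). By edgeR DHT gave 1565 calls, 1227 of them shared. The cause of these changes was not tested. Without chromosome 8, an alternative added after the data were seen, DHT gave 681 higher and 520 lower genes.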
